A study of Mus musculus with 10 samples.

Results

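The genes described here encode actin-binding proteins and were measured in cultures labelled as aortic smooth muscle cells. Of these proteins, the Ena/VASP proteins and diaphanous formins lengthen filaments, and the profilins and beta-thymosins bind actin monomers. The genes were the rows of the expression table whose symbol was Enah, Vasp, Evl, Pfn1, Pfn2, Diaph1, Diaph2, Diaph3, Tmsb4x or Tmsb10, which gave 10 of 36144 genes. The group was formed around Enah because its p-value between the genotypes was among the smallest, so the values of Enah are given as a description and not as a test. The other 9 genes were taken with it by family.

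RNA was measured in 3 libraries of primary vascular smooth muscle cells from mice that carried Myh11-Cre-ERT2 with Adamts7 overexpression and in 3 libraries from wild-type mice, each library from its own mouse. All mice were males of 8 weeks, the cells came from the aortic media, and cultures were used between passages 2 and 7. Chromatin accessibility (ATAC-seq) was measured in 2 mice per genotype. Adamts7 encodes a secreted matrix metalloprotease. Myh11-Cre-ERT2 is a recombinase driven by the smooth muscle myosin promoter that acts once tamoxifen is given. No Cre driver is named in the labels of wild-type mice, nor which mice received tamoxifen, so the driver, tamoxifen and the overexpression cannot be told apart. Which passage each library came from is not stated there. The overexpression RNA libraries have titles that open with the abbreviation WT, and their group was taken from the genotype label.

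Actin filaments grow at one end, the barbed end, from a pool of monomers that profilin and the beta-thymosins bind. Beta-thymosin holds monomers in reserve, whereas profilin hands them to the machines that elongate filaments. Formins sit on the barbed end and feed profilin-bound actin into it, and Ena/VASP proteins do so while keeping capping protein away. In smooth muscle these proteins act at adhesions, stress fibres and dense bodies, and the free monomer level also controls the MRTF coactivators of the transcription factor SRF.

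The 250 bases before the transcription start of the 3 Ena/VASP genes are printed because Enah differed between the genotypes and its paralogs much less. They are from RefSeq on GRCm38.p6, 5′ to 3′ on the strand of the gene. Capitals mark matches to GGGCGG, the GC box bound by SP and KLF factors, or GGAATG, the core of the TEAD motif, on either strand, with overlapping matches counted. The windows lie at chr1:182019981-182020230 on the minus strand for Enah, at chr7:19271855-19272104 on the minus strand for Vasp, and at chr12:108554470-108554719 and chr12:108605516-108605765 on the plus strand for 2 starts of Evl. The Enah window lies inside the annotated gene, which runs from 181896384 to 182027556, so a further upstream start is not covered.
Enah: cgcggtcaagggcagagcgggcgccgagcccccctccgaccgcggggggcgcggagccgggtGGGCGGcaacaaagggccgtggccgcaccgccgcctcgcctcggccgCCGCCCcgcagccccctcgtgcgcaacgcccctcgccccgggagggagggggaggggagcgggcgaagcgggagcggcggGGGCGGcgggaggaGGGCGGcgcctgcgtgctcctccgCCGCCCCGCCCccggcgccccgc
Vasp: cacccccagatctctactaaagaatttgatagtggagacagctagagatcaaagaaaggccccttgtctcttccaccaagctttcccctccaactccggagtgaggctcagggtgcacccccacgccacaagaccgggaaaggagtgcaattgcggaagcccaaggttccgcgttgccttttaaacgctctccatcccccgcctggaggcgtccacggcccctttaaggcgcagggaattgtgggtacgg
Evl, upstream start: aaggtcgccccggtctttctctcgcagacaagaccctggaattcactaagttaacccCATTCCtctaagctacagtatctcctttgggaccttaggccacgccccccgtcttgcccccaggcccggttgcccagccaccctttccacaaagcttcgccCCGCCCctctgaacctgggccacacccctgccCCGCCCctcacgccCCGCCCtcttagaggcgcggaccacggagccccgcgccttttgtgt
Evl, downstream start: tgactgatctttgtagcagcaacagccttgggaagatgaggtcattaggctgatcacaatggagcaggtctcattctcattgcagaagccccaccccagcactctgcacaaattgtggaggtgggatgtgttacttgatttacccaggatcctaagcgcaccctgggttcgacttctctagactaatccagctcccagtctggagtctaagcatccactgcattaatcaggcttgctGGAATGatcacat

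The Enah window had a GC content of 84.8% and held 6 GC boxes. The Vasp window had a GC content of 57.2% and none of the letters searched. The upstream Evl start had 3 GC boxes and 1 TEAD core, and the downstream Evl start had 1 TEAD core. Of the 32851 promoter windows in the same table, 32.7% held a GC box, 12.6% a TEAD core and 1.47% the CArG box, the motif of SRF. Windows were found for 9 of the 10 genes. Of their 12 windows, 9 held a GC box, for 7 of these 9 genes. A TEAD core was in 3 windows, for Evl and Pfn1, and the CArG box in none. These are matches of letters in short windows and say nothing about binding.

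Adamts7 checked the labels. It stood at 98.7, 79.1 and 75.8 TPM in overexpression cultures, against 6.08, 6.18 and 8.20 TPM in wild-type cultures. TPM is a transcript abundance corrected for transcript length and scaled to a total of 1000000 per library. Every library was therefore on the side its genotype label gives. The fit, limma on log2(TPM + 1), covered the 13131 genes that averaged 1 TPM or more, and a gene was called at a Benjamini-Hochberg adjusted p under 0.05. All 10 genes described here were tested. Limma called 2 genes in all, 0.0152% of those tested, and 0 of these 10. Of the 10, 4 had an unadjusted p under 0.05, 3 higher and 1 lower, where 19.5% of all tested genes had such a p. The libraries of the genotypes did not overlap for the same 4 genes, against 27.2% of all tested genes. Since the contrast served to choose Enah, nothing is read from these counts. The median log2 fold change was -0.0061 over the 10 genes and -0.0090 over all tested genes. TPM keep no read number, so the depth behind each value is unknown, and no interval for counting error can be given. In bulk cultures, fewer cells of a type and less RNA per cell cannot be told apart.

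Among the Ena/VASP genes, Enah was 1.86 times as abundant in overexpression cultures, while Vasp was about level and Evl varied with the library. Enah encodes Mena, which lengthens filaments at the leading edge and at focal adhesions. It stood at 28.2, 24.8 and 24.9 TPM in overexpression cultures, against 12.9, 15.8 and 13.1 TPM in wild-type cultures. The lowest overexpression library lay well above the highest wild-type library. The means were 25.9 ± 1.91 TPM in overexpression and 13.9 ± 1.61 TPM in wild type (SD, n = 3 each). This is a log2 fold change of 0.85 ± 0.10 (SE). By p-value, the measure it was chosen on, it was of rank 4 among 13131 genes, and its limma adjusted p of 0.128 made no call. The gene (ENSMUSG00000022995.16) spans chromosome 1 from 181896384 to 182027556 in mm10 (GRCm38.p6). The table holds 1 value per gene, so the neuronal and broadly expressed isoforms of Mena are not separated.

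Vasp, the founding member of the family and a target of cyclic nucleotide-dependent kinases in smooth muscle, stood at 79.3, 90.5 and 82.5 TPM in overexpression cultures, against 75.7, 94.5 and 90.3 TPM in wild-type cultures. The groups overlapped throughout. Its log2 fold change was -0.04 ± 0.10 (SE; limma adjusted p = 0.849). With wild-type replicate 1 left out it was -0.14, and leaving out wild-type replicate 2 turned the sign, to 0.022. Evl, the third paralog and the one best known from blood cells, stood at 57.5, 49.7 and 43.2 TPM in overexpression cultures, against 43.8, 41.2 and 46.1 TPM in wild-type cultures. Overexpression replicates 1 and 2 were above every wild-type library and replicate 3 was among them. The log2 fold change was 0.19 ± 0.11 (SE; limma adjusted p = 0.388). Leaving out overexpression replicate 1 gave 0.083, and leaving out overexpression replicate 3 gave 0.29.

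**Figure D1:**
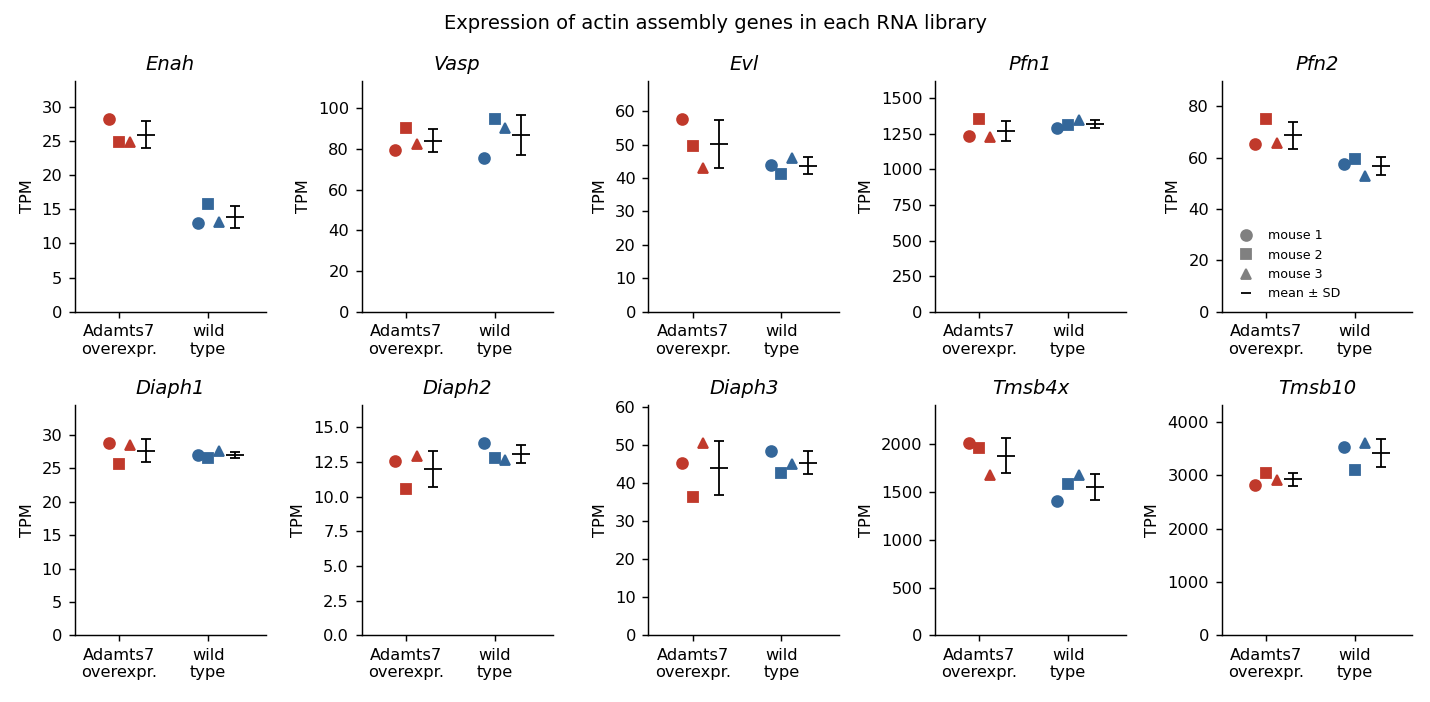
TPM of each gene (vertical axes start at 0) in the 3 Adamts7 overexpression and 3 wild-type libraries; each point is a library, its shape gives the mouse number, and the black mark is the mean ± SD. Enah is the gene whose points are farthest apart relative to its level, at 24.8 to 28.2 TPM in overexpression and 12.9 to 15.8 TPM in wild type.

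Of the profilins, the minor form was higher in overexpression cultures and the abundant form was about level. Profilin 1, from Pfn1, is the form found in nearly all cells and supplies most polymerisable actin. Pfn1 stood at 1236, 1351 and 1228 TPM in overexpression cultures, against 1294, 1311 and 1350 TPM in wild-type cultures. The groups overlapped, with a log2 fold change of -0.05 ± 0.06 (SE; limma adjusted p = 0.675). It was -0.12 under quantile normalisation and between -0.098 and -0.029 with 1 library left out. Profilin 2, from Pfn2, is best known from neurons. Pfn2 stood at 65.4, 74.8 and 65.6 TPM in overexpression cultures, against 57.5, 59.6 and 53.0 TPM in wild-type cultures. Every overexpression library lay above every wild-type library, by a log2 fold change of 0.27 ± 0.08 (SE), and limma made no call (adjusted p = 0.155). Pfn1 overlaps the neighbouring gene Eno3 in the RefSeq annotation; Eno3 averaged 6.93 TPM in overexpression and 5.47 TPM in wild type.

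The diaphanous formins, which nucleate and elongate unbranched filaments, had no call and overlapping groups for every gene. Diaph1 stood at 28.7, 25.7 and 28.5 TPM in overexpression cultures, against 27.0, 26.5 and 27.5 TPM in wild-type cultures. The log2 fold change was 0.03 ± 0.07 (SE), and between 0.0011 and 0.080 with 1 library left out. Diaph2 stood at 12.5, 10.5 and 13.0 TPM in overexpression cultures, against 13.9, 12.8 and 12.7 TPM in wild-type cultures, with a log2 fold change of -0.12 ± 0.10 (SE). That value was -0.037 without overexpression replicate 2. Diaph3, the formin tied to cell division and filopodia, stood at 45.2, 36.3 and 50.5 TPM in overexpression cultures, against 48.5, 42.6 and 45.0 TPM in wild-type cultures. Overexpression replicates 2 and 3 held the lowest and the highest level of all 6 libraries. Its log2 fold change of -0.05 ± 0.12 (SE) turned to 0.076 without overexpression replicate 2 and was -0.16 without overexpression replicate 3. Limma gave these 3 genes adjusted p-values of 0.861, 0.554 and 0.847.

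The 2 beta-thymosins stood in opposite directions. Tmsb4x encodes thymosin beta 4, the main monomer-holding peptide of many cells. It stood at 2012, 1959 and 1677 TPM in overexpression cultures, against 1408, 1584 and 1674 TPM in wild-type cultures. The groups did not overlap, but overexpression replicate 3 lay only just above the highest wild-type library. The log2 fold change was 0.27 ± 0.10 (SE; limma adjusted p = 0.200). It was 0.13 under quantile normalisation. Tmsb10 encodes thymosin beta 10, a close relative. It stood at 2810, 3045 and 2919 TPM in overexpression cultures, against 3531, 3106 and 3599 TPM in wild-type cultures. Every overexpression library was below every wild-type library, by a log2 fold change of -0.22 ± 0.08 (SE), and limma made no call (adjusted p = 0.203). Both genes are short and abundant, and reads shared with similar sequences elsewhere would be divided between them in the estimate; how far this moved their levels was not tested.

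**Figure D2:**
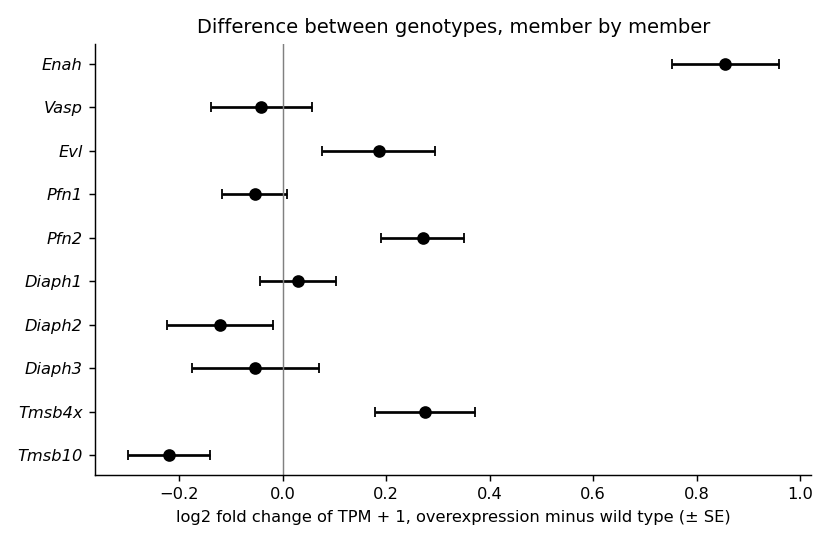
Log2 fold change of TPM + 1, overexpression minus wild type (horizontal axis), for each gene, with bars of 1 standard error. Enah, at 0.85, lies apart from the other genes, which run from -0.22 for Tmsb10 to 0.27 for Tmsb4x.

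On the TPM scale the order of the levels was much the same in both genotypes. The beta-thymosins and Pfn1 came first, at means of 2924, 1883 and 1271 TPM in overexpression and 3412, 1556 and 1318 TPM in wild type for Tmsb10, Tmsb4x and Pfn1. Vasp and Pfn2 followed, at 84.1 and 68.6 TPM in overexpression and 86.9 and 56.7 TPM in wild type. Evl and Diaph3 were next and could not be ordered, since their ranges overlapped in both genotypes. Enah changed its neighbour in the order. In overexpression cultures its range overlapped that of Diaph1 and lay above that of Diaph2, whereas in wild-type cultures it overlapped Diaph2 and lay below Diaph1.

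Shares within each family describe the make-up of the machinery within a library. Enah made up 17.1%, 15.0% and 16.5% of the summed Ena/VASP TPM in overexpression cultures, against 9.75%, 10.4% and 8.76% in wild-type cultures. Vasp, the leading member in all 6 libraries, made up 52.6 ± 3.91% in overexpression and 60.0 ± 2.63% in wild type (SD, n = 3 each), and Evl 31.2 ± 3.25% in overexpression and 30.4 ± 2.97% in wild type. The summed Ena/VASP level was 160 ± 8.39 TPM in overexpression and 144 ± 10.5 TPM in wild type (SD, n = 3 each), with overlapping libraries. The family total was thus not separable from the spread between mice. The shares of Enah did not overlap between the genotypes, but they hold the values Enah was chosen on and were not tested. Shares within a family depend on one another, so the lower share of Vasp is no separate result.

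Tmsb4x made up 41.7%, 39.2% and 36.5% of the summed beta-thymosin TPM in overexpression cultures, against 28.5%, 33.8% and 31.8% in wild-type cultures. The summed beta-thymosin level was 4807 ± 204 TPM in overexpression and 4967 ± 292 TPM in wild type (SD, n = 3 each), with overlapping libraries. Pfn2 made up 5.03%, 5.25% and 5.07% of profilin TPM in overexpression cultures, against 4.25%, 4.35% and 3.77% in wild-type cultures. Diaph2 made up 14.5%, 14.5% and 14.1% of the diaphanous formin TPM in overexpression cultures, against 15.5%, 15.6% and 14.9% in wild-type cultures. Each of these 3 shares gave p = 0.1 in an exact permutation test (two-sided, 6 libraries), the smallest value that 3 against 3 can reach, and 0.2 after adjustment over the 6 comparisons made. The shares of Diaph1 and Diaph3 gave exact p-values of 0.4 and 0.9. The ratio of summed beta-thymosin to summed profilin TPM was 3.59 ± 0.103 in overexpression and 3.61 ± 0.172 in wild type (SD, n = 3 each; exact permutation p = 0.9).

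**Figure D3:**
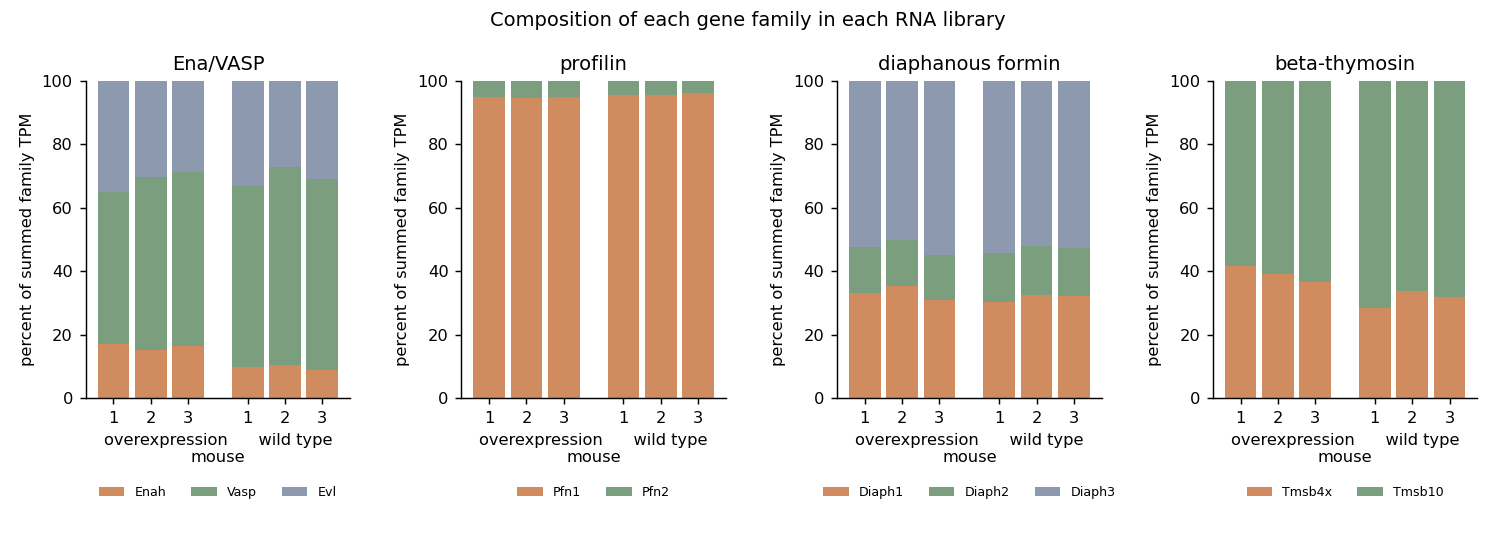
Percent of summed family TPM (vertical axis) taken by each gene in each library, with the 3 overexpression libraries left of the 3 wild-type libraries in each panel. The Enah segment is 15.0% to 17.1% in overexpression and 8.76% to 10.4% in wild type, and the Tmsb4x segment 36.5% to 41.7% in overexpression and 28.5% to 33.8% in wild type.

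Markers of other cell types differed between these libraries as well. All 20 macrophage markers were above 0 in every library, and their summed level was 1260 to 4037 TPM in overexpression and 533 to 780 TPM in wild type. All 16 endothelial markers were likewise detected, with sums of 2830 to 4720 TPM in overexpression and 5554 to 6098 TPM in wild type. The 12 smooth muscle markers summed to 5004 to 6821 TPM in overexpression and 4284 to 4430 TPM in wild type. Markers of the labelled cell type were thus present together with those of endothelium and macrophages. The endothelial sum was above the smooth muscle sum in every wild-type library and below it in every overexpression library. Sums over different lists do not measure the shares of cell types. Of 10 fibroblast markers, 8 were above 0 in every library, but only 6 averaged 1 TPM or more. The 15 proliferation markers summed to 1122 to 1229 TPM in overexpression and 1210 to 1318 TPM in wild type. Mitochondrially encoded genes took 12.0% to 12.3% of TPM in overexpression and 12.4% to 14.3% in wild type.

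Enah and the median macrophage marker were both highest in overexpression replicate 1. The median macrophage marker stood 2.20, 1.98 and 0.73 above the wild-type mean on the log2 scale in overexpression replicates 1, 2 and 3. Enah stood 0.97, 0.80 and 0.80 above its wild-type mean in the same libraries. It was about level between replicates 2 and 3, while the markers were lowest in replicate 3. Evl stood at 0.39, 0.18 and -0.017 and Tmsb4x at 0.37, 0.34 and 0.11, in the same order as the macrophage markers. Pfn2 stood at 0.21, 0.40 and 0.21, with its highest value in replicate 2, where the median smooth muscle marker was also highest, at 0.53, and the median endothelial marker lowest, at -0.93. Diaph3 was lowest in that library too, at -0.31, as was the median proliferation marker, at -0.25. In wild-type replicates 1, 2 and 3, Enah stood at -0.096, 0.17 and -0.078 and the median macrophage marker at -0.18, 0.18 and 0.028. Both were thus lowest in wild-type replicate 1 and highest in wild-type replicate 2. The part of these cell types in the values of the members was not tested. Leaving out overexpression replicate 3, limma called Enah (adjusted p = 0.0109) and none of the other 9 genes. That setting called 828 of 13141 genes in all, against 2 of 13131 with all libraries. Enah was chosen on this contrast, so its call is a description and not a test.

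**Figure D4:**
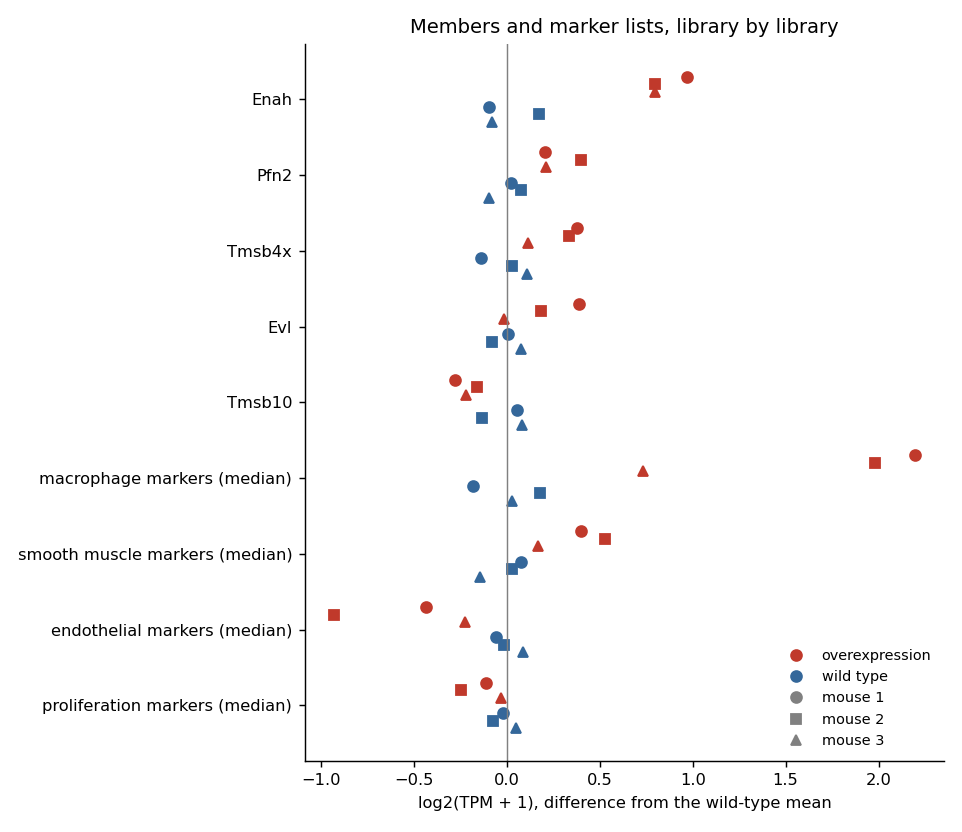
Difference of log2(TPM + 1) from the wild-type mean (horizontal axis) for 5 genes and for the median gene of 4 marker lists; points are libraries, coloured by genotype and shaped by mouse number. Enah stays between 0.80 and 0.97 in the overexpression libraries, while the macrophage median runs from 0.73 to 2.20. In the wild-type libraries Enah runs from -0.096 to 0.17 and the macrophage median from -0.18 to 0.18.

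The genes whose profile over the 6 libraries was most like that of Enah were Plekhg3, Cask, Stt3b, Arhgef3 and Brwd3, with a Pearson correlation of log2(TPM + 1) of at least 0.988. Plekhg3 averaged 23.7 TPM in overexpression and 18.5 TPM in wild type, and Arhgef3 3.09 TPM in overexpression and 1.96 TPM in wild type. Cask, a membrane scaffold, averaged 20.0 TPM in overexpression and 15.8 TPM in wild type. The genes with the most opposite profile were Ifitm3, Angpt2, Pros1, Lage3 and Itih5, with a correlation of at most -0.986. Angpt2, an angiopoietin, averaged 58.0 TPM in overexpression and 74.4 TPM in wild type. With 6 libraries in 2 genotypes, any gene that separates the genotypes evenly can reach such a value, so these are a description only. Within the group, Pfn2 had 0.852, Tmsb4x 0.817 and Tmsb10 -0.930.

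Other genes of actin assembly were described from 7 lists, with 97 genes in the table and 84 tested. Limma called none of them over all genes, and 31 had an unadjusted p under 0.05, which is 36.9% against 19.5% of all tested genes. Of these, 21 were higher and 10 lower, where the shares over all tested genes were 10.6% and 8.94%. The 21 include the blood-cell forms described below. The lists were chosen with earlier results of these data known, so nothing is read from these counts. The median log2 fold change over the 84 genes was 0.0095, against -0.0090 over all tested genes.

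The Arp2/3 complex, which starts branched filaments, was on the higher side in 8 of 9 tested subunits, with a median of 0.12 on the log2 fold change scale and no call. Actr2 and Actr3, the actin-related subunits, averaged 120 and 406 TPM in overexpression and 103 and 354 TPM in wild type, with log2 fold changes of 0.22 and 0.20. Arpc2, the most abundant subunit, averaged 673 TPM in overexpression and 603 TPM in wild type, and Arpc3 476 TPM in overexpression and 473 TPM in wild type. Of the WASP and WAVE genes, which switch on that complex, 7 of 16 were on the higher side, with a median of -0.098. The abundant WAVE subunits Nckap1 and Abi1 averaged 192 and 135 TPM in overexpression and 201 and 132 TPM in wild type.

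The largest fold changes in these lists belonged to forms best known from blood cells. Nckap1l, the blood-cell counterpart of Nckap1, stood at 12.9, 11.4 and 4.19 TPM in overexpression cultures, against 1.98, 2.84 and 2.60 TPM in wild-type cultures. Was, the Wiskott-Aldrich protein gene, stood at 6.84, 7.33 and 2.60 TPM in overexpression cultures, against 1.56, 2.49 and 1.86 TPM in wild-type cultures. The leukocyte formin gene Fmnl1 stood at 8.72, 7.70 and 3.42 TPM in overexpression cultures, against 2.62, 4.15 and 2.25 TPM in wild-type cultures. Among the overexpression libraries, all 3 were lowest in replicate 3. Macrophage markers summed to 1260 TPM in that library, against 4037 and 3225 TPM in the other overexpression libraries. The part of macrophages in the levels of these blood-cell forms was not tested. Coro1a, the leukocyte coronin, stood at 20.3, 19.6 and 8.78 TPM in overexpression cultures, also lowest in replicate 3, against 4.81, 7.55 and 7.02 TPM in wild-type cultures. None was called (limma adjusted p from 0.131 to 0.208). Without overexpression replicate 3, limma called all 4, in a setting that called 828 of 13141 genes, against 2 with all libraries.

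Ena/VASP partners at adhesions and the leading edge went both ways, with 8 of 15 on the higher side, a median of 0.026 and no call. Zyx encodes zyxin, which docks Ena/VASP proteins at adhesions and stress fibres. It stood at 654, 670 and 745 TPM in overexpression cultures, against 815, 854 and 830 TPM in wild-type cultures. Every overexpression library was lower, by a log2 fold change of -0.27 ± 0.07 (SE; limma adjusted p = 0.131). Raph1, which encodes lamellipodin, the partner at the leading edge, stood at 35.0, 29.5 and 33.4 TPM in overexpression cultures, against 39.7, 46.7 and 39.8 TPM in wild-type cultures, a log2 fold change of -0.36 ± 0.10 (SE; limma adjusted p = 0.145). Tln1, talin, averaged 343 TPM in overexpression and 301 TPM in wild type, with overlapping libraries. Libraries of the genotypes did not overlap for 8 of the 15 genes, 3 higher and 5 lower in overexpression, where the shares over all tested genes were 14.3% and 12.9%. Besides Zyx and Raph1, and named after their values were seen, the lower ones were Pxn, Palld and Trip6, with log2 fold changes of -0.34, -0.34 and -0.20, and the higher ones were Vcl, Fermt2 and the blood-cell adaptor Apbb1ip, with 0.12, 0.13 and 0.73. The blood-cell adaptor Fyb, also named after the fact, had 1.17, with overlapping libraries.

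Among monomer binders and other nucleators, 7 of 11 tested genes were on the higher side, with a median of 0.054 and no call. Lmod1, the leiomodin that starts filaments in smooth muscle, stood at 45.8, 68.8 and 39.8 TPM in overexpression cultures, against 29.1, 31.6 and 28.7 TPM in wild-type cultures (log2 fold change 0.73 ± 0.18 SE; limma adjusted p = 0.133). Tmsb15b2, a further beta-thymosin, averaged 25.9 TPM in overexpression and 16.5 TPM in wild type, a log2 fold change of 0.63. Its similar copy Tmsb15b1 had -0.33, named after its value was seen, and how reads were divided between them is uncertain. The monomer binders Cap1 and Twf1 averaged 408 and 99.5 TPM in overexpression and 376 and 95.8 TPM in wild type.

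Severing and capping genes had a median of -0.030, with 8 of 21 on the higher side and no call. The libraries did not overlap for those 8 genes and for 1 lower gene. Over all tested genes the shares were 14.3% higher and 12.9% lower. Gsn, the severing and capping protein gelsolin, stood at 573, 555 and 542 TPM in overexpression cultures, against 410, 468 and 473 TPM in wild-type cultures, a log2 fold change of 0.31 ± 0.07 (SE; limma adjusted p = 0.131). Cfl1, cofilin, averaged 1486 ± 145 TPM in overexpression and 1483 ± 5.89 TPM in wild type (SD, n = 3 each). Of the other formins, 4 of 8 were on the higher side, with a median of 0.057. Fmnl3 averaged 29.5 TPM in overexpression and 33.9 TPM in wild type. The abundant members Inf2 and Fhdc1 averaged 78.0 and 58.9 TPM in overexpression and 85.2 and 54.3 TPM in wild type.

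Of the 4 genes of SRF and its coactivators, 1 was on the higher side, with a median of -0.094 and no call. Srf averaged 42.9 ± 4.89 TPM in overexpression and 46.2 ± 1.60 TPM in wild type, a log2 fold change of -0.11. Leaving out overexpression replicate 1 gave -0.018 for it, and leaving out overexpression replicate 2 gave -0.18. Its coactivator gene Mrtfb averaged 39.5 ± 6.96 TPM in overexpression and 48.5 ± 0.890 TPM in wild type (SD, n = 3 each; log2 fold change -0.31, limma adjusted p = 0.246), and without overexpression replicate 2 the log2 fold change was -0.16. Myocd averaged 6.19 ± 2.54 TPM in overexpression and 4.61 ± 0.647 TPM in wild type (SD, n = 3 each), with overlapping libraries and its highest level, 8.99 TPM, in overexpression replicate 1. Its log2 fold change was 0.30 with all libraries (limma adjusted p = 0.531), 0.038 with that library left out and 0.53 with overexpression replicate 2 left out.

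**Figure D5:**
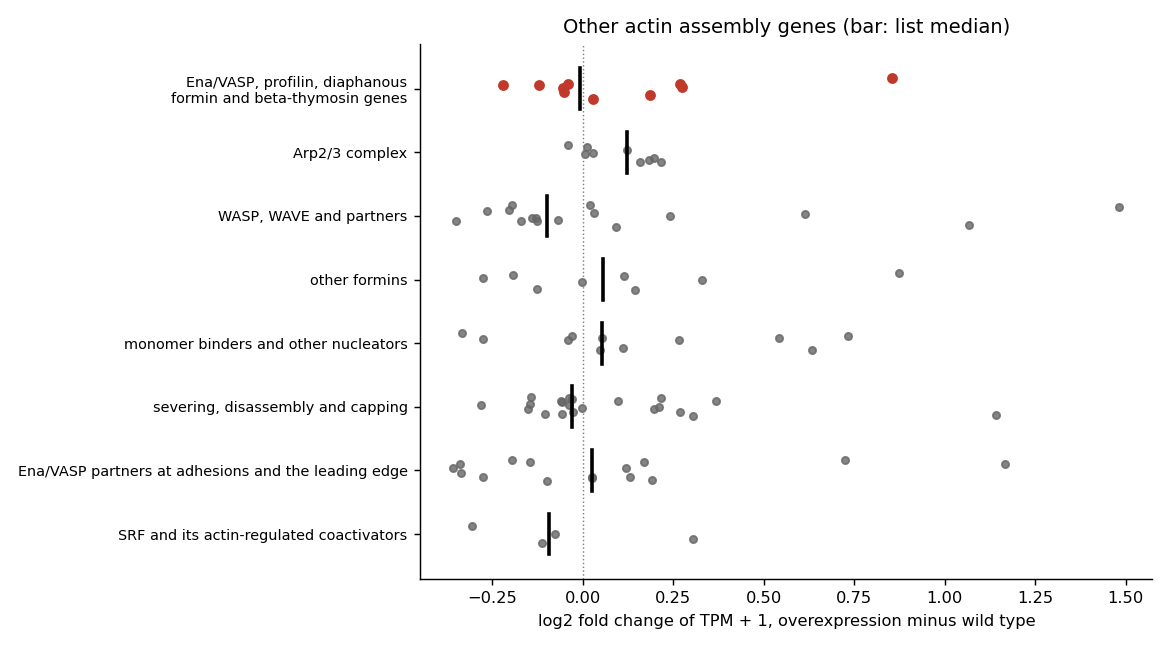
Log2 fold change of TPM + 1, overexpression minus wild type (horizontal axis), of the 10 genes (red) and of each tested gene in 7 further lists (grey); black bars are medians. The medians run from -0.098 for WASP, WAVE and partners to 0.12 for the Arp2/3 complex, and the points farthest to the right in the lists are Nckap1l, Fyb, Coro1a and Was.

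Chromatin footprints, from other libraries, were described at SRF and TEAD motifs, and whether they follow actin in these cultures was not tested. In the authors' deposited table, which merges the 2 mice of each genotype, the mean footprint score at SRF motifs was 0.211 in overexpression and 0.196 in wild type. Of 8649 SRF sites, the authors' deposited table calls 818 bound in overexpression, 9.46% (95% Wilson interval 8.86% to 10.1%), and 646 in wild type, 7.47% (6.93% to 8.04%). In the authors' deposited table the bound shares of TEAD1, TEAD2, TEAD3 and TEAD4 were 11.2%, 12.1%, 12.1% and 10.8% in overexpression. In wild type they were 8.6%, 9.1%, 8.9% and 8.2%. The bound share over all motifs is not given here, so a higher share is not particular to SRF. The authors' deposited change score, given here with a positive sign for higher in overexpression, was 0.17 for SRF, against a median of 0.11 over 879 motifs, of which 61.9% were above 0. The TEAD1, TEAD2, TEAD3 and TEAD4 motifs, whose coactivators also follow actin tension, had 0.37, 0.40, 0.34 and 0.41 in the authors' deposited table. From the highest change in the authors' deposited table, SRF was of rank 374. In the authors' deposited table TEAD1, TEAD2, TEAD3 and TEAD4 were of rank 153, 127, 172 and 124. The TEAD motifs share a core, so their values are not separate results. The merged scores have no replicate spread, so none of these differences was tested, and the intervals cover counting of sites only.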

How the data were processed

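The members and lists were chosen with earlier results of these data known. The authors deposited gene-level TPM for each library, which the labels attribute to kallisto; a column totals 1000000. Per the submitters' processing notes the genome build is mm10. The version of kallisto, its annotation and the number of reads are not stated there. Per the file headers, the authors' footprint scores follow TOBIAS BINDetect, with a deposited p-value for each motif that is not used in the text.

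The genotype label gave the groups, and the mouse number in the title the replicates. All libraries carry the same batch label. Nothing says that equal mouse numbers mark a shared litter or day. Genes averaging 1 TPM or more were tested on log2(TPM + 1), a pseudocount of 1 TPM, with limma 3.58.1 under R 4.3.3 (lmFit, then eBayes with a trend), two-sided, with Benjamini-Hochberg adjustment over 13131 genes; fold changes on this scale understate those of low genes. The procedure was tested on simulated data. Shares used exact permutation tests in Python 3.11.15 with numpy 2.4.6. Positions and promoters are from RefSeq tables of GRCm38.p6, and gene IDs from a table that matched 35933 of 36144 symbols.

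Named are the 10 members, Adamts7, in each list the 2 genes of smallest p and the 2 of highest TPM, the 5 genes most and the 5 least like Enah (predicted models left out), and SRF and TEAD motifs; other names are marked. A further list of actin genes is not reported here. The alternatives were pseudocounts of 0.1 and 0.5 TPM, no filter or a mean of 5 TPM, median-of-ratios scaling, quantile normalisation, library weights, a replicate block and each library left out.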

Additional observations from a re-analysis of the deposited data

How the results depend on the processing

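Enah had a log2 fold change between 0.80 and 0.94 over the 14 alternatives, positive in all, and was called only with library weights (adjusted p = 0.00573) and without overexpression replicate 3 (0.0109), over alternatives ranging from 0.00573 to 0.354. Of the 10 members, 8 kept their sign in all 14 alternatives. With 1 library left out, Vasp ran from -0.14 to 0.022, positive without wild-type replicate 2, and Diaph3 from -0.16 to 0.076, positive without overexpression replicate 2; Diaph3 was 0.020 with library weights. With limma's library weights 5 members were called: Enah, Evl, Pfn2 and Tmsb4x higher and Tmsb10 lower. That setting gave overexpression replicate 1 a weight of 5.66, against 0.278 and 0.486 for overexpression replicates 2 and 3. It also called 2728 genes in all and 30 genes of the other actin lists. Leaving out 1 library gave 0 to 1 called members, 1 to 828 called genes in all and 0 to 10 called genes of the other lists; the highest of each came without overexpression replicate 3, and the cause was not tested. A mean of at least 5 TPM called 1 gene in all.

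Between libraries of equal mouse number, deviations from the group means correlated at -0.022, 0.058 and 0.018. Between unequal numbers they correlated at -0.057 to 0.035. With 3 libraries per genotype, this cannot tell whether mice of equal number shared a litter or day. With the replicate block limma called 1 gene in all and 0 members, and Enah kept 0.85 (adjusted p = 0.110). The difference in the Enah share of Ena/VASP TPM was 6.12 to 7.15 percentage points with 1 library left out, against 6.57 with all. The Diaph3 share difference changed sign there, from -1.83 to 0.58 percentage points around -0.59, as did the ratio of beta-thymosin to profilin, from -0.12 to 0.052.

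Of the 25 other named actin genes, 21 kept their sign. Arpc3 turned to -0.00076 under quantile normalisation and -0.034 with library weights, and ran from -0.015 to 0.031 with 1 library left out. Nckap1 turned to 0.00075 with library weights and 0.010 without overexpression replicate 2, with a lowest value of -0.12 with 1 library left out. Abi1 ran from -0.0039 to 0.086 with 1 library left out. Cfl1 turned to 0.0089 under median-of-ratios scaling and ran from -0.080 to 0.049 with 1 library left out. The depth behind the TPM is unknown, so counting error could not be separated from the spread between mice.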
